A study of Rattus norvegicus with 56 samples.

Results

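The comparison described here was that of parietal cortex from aged, cognitively unimpaired rats (AU) after intermittent theta burst stimulation (iTBS) with the same tissue after a sham procedure. The arrays were chosen by their titles: the first array of each AU cortex sample, 5 after iTBS and 4 after sham, 1 per animal, which made 9 of the 56 arrays in the series. The other first arrays held cortex of young (Y) and aged impaired (AI) rats and hippocampus of all 3 kinds, 7 further arrays were technical repeats, and 1 array had no usable group label. The labels give each of the 9 arrays an animal number of its own. The study's methods count fewer aged animals than the labels hold for AU and AI cortex together.

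All animals were male Long-Evans rats. The AU and AI rats were 26 to 27 months old and the young rats 6 to 7 months. Unimpaired meant that the animal had learned a water maze about as well as young rats do. Both arms were lightly anesthetized with isoflurane, given Dexmedetomidine at 0.03 mg/kg (0.035 mg/kg in young rats) and reversed with Antisedan. In the iTBS arm the coil sat 8 mm above the skull, and in the sham arm it was kept away from the head. Tissue was taken 48 h after the session, and the cortex under the coil was dissected out. Each array therefore measured bulk RNA of a piece of tissue, and in such samples fewer cells of a type and less RNA per cell cannot be told apart.

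In iTBS, brief bursts of magnetic pulses at a theta rhythm induce currents in the cortex beneath the coil, and short trains of bursts alternate with pauses. The pattern is known for raising cortical excitability for a time after the session, by changes at glutamate synapses that involve NMDA receptors and by changes in GABA-releasing interneurons. Strong neuronal activity switches on immediate early genes such as *Fos*, *Arc* and *Egr1* within a short time, and later genes for secreted peptides, receptors and channels follow.

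Signals are given on a log2 scale after each array was centred on its own mean and scaled to a common spread, so that 0 is the mean of an array's probes and a difference of 1 is about a doubling. Levels of different probes are not compared. A probe was tested where the scanner software called it well above background on at least 3 of the 24 first cortex arrays, which left 32603 of 45598 probes. The test was limma's moderated test on the 24 cortex arrays in 6 groups, with Benjamini-Hochberg adjustment over all probes tested.

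The tissue label was checked first. Of 19 cortical layer markers, 18 were well above background on all 9 AU cortex arrays, and 6, among them *Cux2*, *Foxp2* and *Lamp5*, were higher on every AU cortex array than on every AU hippocampus array, while *Bcl11b* and *Sulf2* were lower on every one. Of 8 hippocampal subfield markers none was higher in cortex without overlap, and 4 were lower in cortex without overlap. The others overlapped. *Tyro3* (mean 8.77 in cortex against 8.08 in hippocampus) and *Prox1* (6.78 against 6.72) were higher in cortex on average, and *Wfs1* and *Lct* were lower. The iTBS 1 array stood apart in *Ttr*, the transthyretin gene made by choroid plexus, at 9.44 against 3.33 to 6.45 on the other 8 arrays, and its summed choroid plexus signal was 9.53, the upper end of a range that began at 5.00 in the iTBS arm and ran from 6.33 to 7.55 in the sham arm.

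The arrays themselves also differed between the arms in other ways. Their number of detected probes and their scanning both moved with the arms. The share of probes well above background was 63.4%, 63.3%, 61.8% and 61.1% on the sham arrays and 67.4%, 69.7%, 68.3%, 62.9% and 65.3% on the iTBS arrays. The means were 62.4% ± 1.13 (SD, n = 4) and 66.7% ± 2.67 (SD, n = 5), and only the iTBS 4 array lay within the sham range (difference 4.30 percentage points, two-sided exact permutation test, p = 0.0317). Leaving out any 1 animal kept the difference between 3.55 and 5.25 points, with an exact p of 0.0286 without iTBS 4 and above 0.05 without any 1 of the other 8. The arrays were also scanned in 2 batches, 3 sham and 2 iTBS arrays in batch 1 and 1 sham and 3 iTBS arrays in batch 2, and values within the batches are given below where they bear on a result, those of batch 2 resting on the sham 1 array alone for its sham arm. The permutation test took no account of scan batch. In batch 1 the share was 61.1% to 63.3% on the sham arrays and 62.9% and 65.3% on the iTBS arrays. In batch 2 it was 63.4% on sham 1 and 67.4% to 69.7% on the iTBS arrays. The repeat array of iTBS 4, scanned in batch 2, had 64.9% against 62.9% on the first array in batch 1. The iTBS 2 and iTBS 3 arrays came from 1 slide, which held no AU sham array but held the repeat array of iTBS 4, and iTBS 5 came from another slide without an AU sham array.

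**Figure D1:**
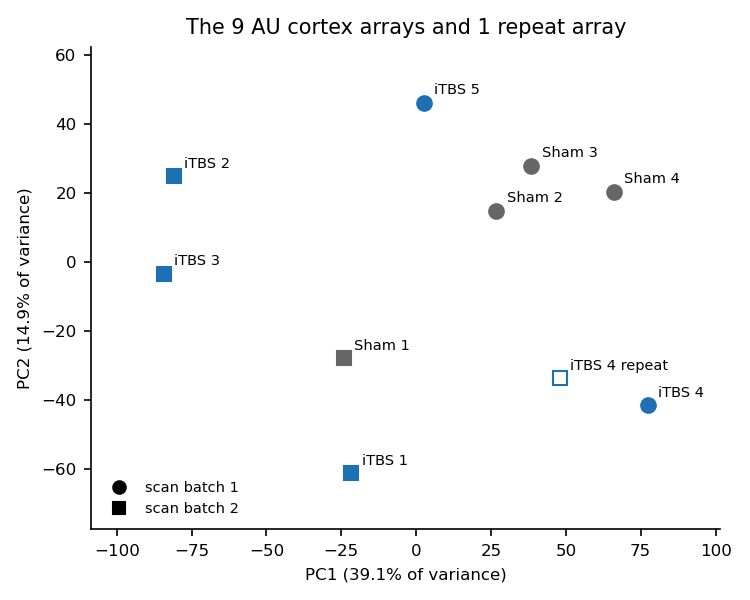
Principal components of the 9 AU cortex arrays over all probes tested, with PC1 on the x axis (39.1% of the variance) and PC2 on the y axis (grey, sham, blue, iTBS, circles, scan batch 1, squares, scan batch 2, open square, the repeat array of iTBS 4 projected onto the same axes). The arms were not separated on PC1: sham ran from -24.1 to 65.9 and iTBS from -84.3 to 77.4, with iTBS 2 and iTBS 3 at the low end and iTBS 4 at the high end. The scan batches of the 9 arrays were separated on PC1, batch 1 from 2.5 to 77.4 and batch 2 from -84.3 to -21.7. The repeat array, scanned in batch 2, lay at 47.9, among the batch 1 arrays.

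Few single probes passed the test between stimulated and sham AU cortex. Of 32603 probes, 5 changed at an adjusted p under 0.05 (0.0153%), and all 5 fell after iTBS. They were *Iapp*, which encodes the islet hormone amylin, *Cd69*, an early activation antigen of lymphocytes, *C2cd6*, a gene of a C2 domain protein, and 2 RefSeq transcripts without a gene symbol, XR_344346 and XR_344712. At an unadjusted p under 0.05 there were 2377 probes (7.29%), 1362 higher after iTBS (4.18%) and 1015 lower (3.11%), a balance of 57.3% higher that became 48.1% with scaling to the 75th percentile and 48.8% with quantile normalization, but 79.9% with the deposited z-scores and 25.6% over probes with a mean z-score above 0. At an adjusted p under 0.3 there were 15 probes (0.046%), a number that depended on 1 animal: without iTBS 4 there were 9782 by limma, 5297 higher and 4485 lower, although none then reached an adjusted p under 0.05 (6833 at an unadjusted p under 0.05). The arms did not overlap at 467 probes (1.43%), 264 of them higher after iTBS (0.81%) and 203 lower (0.623%).

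All 5 changed probes were faint, and the calls were lost in many other fits. None was made by limma with quantile normalization (1193 probes at an unadjusted p under 0.05) or when any 1 of the 5 iTBS animals was left out (1106 to 6833), and leaving out 1 sham animal gave 1 to 3 calls, of which at most 2 were among the 5. *Cd69* (NM_134327) read -2.22, -2.0, -0.74 and -0.71 on the sham arrays and -5.14, -4.08, -5.21, -3.72 and -5.00 on the iTBS arrays. Every iTBS value lay below every sham value, and *Cd69* was the only one of the 5 to be well above background on all 4 sham arrays. *Cd69* was well above background on no iTBS array, so its change on these first arrays has only a bound. It was at least 3.93-fold lower, from the sham mean over the lowest signal well above background on the iTBS arrays (limma, fitted difference -3.21, adjusted p = 0.039). The bound leaves out the repeat array of iTBS 4, which read higher than the first array. Within scan batch 1 the fitted difference was -3.21 and within batch 2 it was -2.59. None of the 5 probes was well above background on an iTBS array, so among the 9 arrays only sham arrays helped them pass the background filter. That all 5 fell with arms apart is therefore no independent support. With the filter applied to the 9 arrays alone none was called by limma (2225 at an unadjusted p under 0.05). Of the 5 only *Cd69* was still tested there. The other 4 were well above background on 2 of the 9 arrays, short of the 3 required, and could not be called.

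*Iapp* (NM_012586) read -2.63, -2.26, -0.14 and -2.23 after sham and -5.02, -5.29, -5.11, -4.60 and -4.74 after iTBS. The arms were again apart, with the sham 3 array far above the other sham arrays (limma, fitted difference -3.14, adjusted p = 0.039, -3.13 within batch 1 and -2.51 within batch 2). The sham mean was 2.99-fold above the lowest signal well above background on the iTBS arrays. This is no strict bound, since only 2 of the sham arrays were well above background. *C2cd6* (NM_001024363) read -2.09, 0.35, -3.35 and -2.18 after sham and -5.08, -5.44, -5.15, -4.66 and -4.94 after iTBS. Its sham values spread widely, with sham 2 highest, and none reached down to the iTBS values (limma fitted difference -3.24, adjusted p = 0.039, -3.08 and -3.14 within batches 1 and 2). The sham mean of *C2cd6* was likewise 2.99-fold above that lowest signal, again with only 2 sham arrays well above background.

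The transcript XR_344346 read -2.95, -2.82, -2.13 and -2.08 after sham and -5.08, -5.44, -5.16, -4.66 and -4.79 after iTBS. Its sham mean was 1.86-fold above the lowest signal well above background on the iTBS arrays. XR_344712 read -0.79, -2.99, -2.83 and -1.93 after sham and -5.03, -5.04, -5.12, -4.61 and -4.90 after iTBS, with its sham mean 2.39-fold above that signal. Within scan batches 1 and 2 the fitted differences were -2.38 and -2.27 for the former and -2.17 and -4.27 for the latter. Both sets were apart, both had an adjusted p of 0.039 by limma, and both were well above background on 2 of 4 sham arrays and on no iTBS array, as were *Iapp* and *C2cd6*. The fold values of these transcripts are therefore no strict bounds either.

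The iTBS 4 animal had been hybridized a second time, and this repeat array, which entered neither the selection nor the fit, measured the 5 probes again. It read -2.79 for *Cd69* against -3.72 on the first array, -2.34 against -4.60 for *Iapp*, -2.06 against -4.66 for *C2cd6*, -2.42 against -4.66 for XR_344346 and -4.84 against -4.61 for XR_344712. For *Iapp*, *C2cd6* and XR_344346 the repeat of the same animal's RNA thus lay among the sham values, and for XR_344712 it stayed with the iTBS values. With the repeat in place of the first array 2 probes changed by limma at an adjusted p under 0.05, 1 of them among the 5 (XR_344712), and with both arrays averaged none did by limma, with 2914 at an unadjusted p under 0.05. Over probes well above background on 4 or fewer of the 9 arrays the repeat and the first array differed by a median of 0.579, and over probes well above background on all 9 by 0.102.

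**Figure D2:**
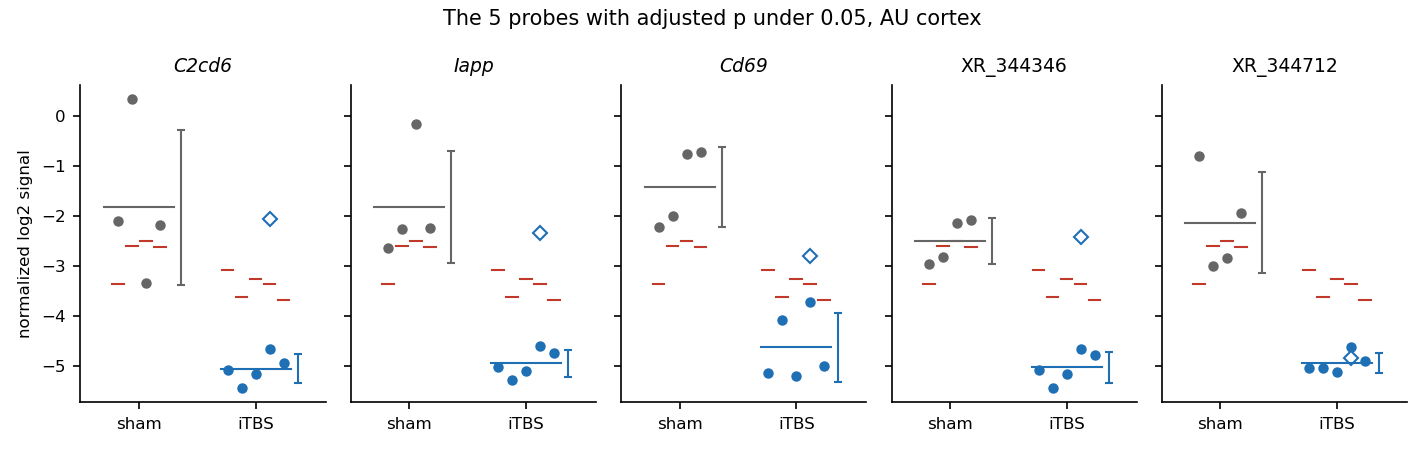
Normalized log2 signal (y axis) of the 5 probes with an adjusted p under 0.05, per array (grey, sham, n = 4, blue, iTBS, n = 5, long lines, means, error bars, SD, open diamonds, the repeat array of iTBS 4, short red marks, the lowest signal well above background on that array). All iTBS points lie below the red marks, and for 3 probes the diamond lies among the sham points.

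Among the 26199 probes that were well above background on all 9 arrays none changed at an adjusted p under 0.05 by limma, whose smallest adjusted p with the adjustment over these probes alone was 0.678, and 1580 had an unadjusted p under 0.05. The genes with the smallest p in each direction are described next, and none of them passed the test. Among genes with a symbol, taken at 1 probe each, 7.36% of 13336 had an unadjusted p under 0.05, 0.78% had all iTBS values below all sham values and 0.472% had all iTBS values above.

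*C1ql3* (NM_001109403), which encodes a secreted C1q-like protein found at excitatory synapses, read 7.73, 7.65, 7.74 and 7.58 on the sham arrays and 7.08, 7.01, 6.89, 7.27 and 7.19 on the iTBS arrays. The arms were apart, the sham values were tightly grouped, and the repeat of iTBS 4 read 7.17. The difference was -0.58 with a 95% interval from -0.89 to -0.28 (limma, unadjusted p = 0.00064, adjusted p = 0.596), -0.42 within scan batch 1 and -0.73 within batch 2.

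*Gad2* (NM_012563), the gene of the GABA-synthesizing enzyme GAD65, read 4.75, 5.17, 5.16 and 5.15 after sham and 4.46, 4.25, 4.48, 4.85 and 4.32 after iTBS. The sham 1 array was the low one of its arm and iTBS 4 the high one of the other, and these 2 arrays alone made the arms overlap. The repeat of iTBS 4 read 4.85 as well. The difference was -0.59 (95% interval -0.92 to -0.25, limma unadjusted p = 0.0014, adjusted p = 0.645), -0.54 with quantile normalization, -0.58 and -0.35 within scan batches 1 and 2, and -0.33 with the slide as a block.

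*Mllt1* (NM_001106876), a subunit of the super elongation complex of transcription, read 7.68, 7.10, 7.19 and 7.13 after sham and 6.96, 6.70, 6.56, 6.72 and 6.93 after iTBS. *Cmip* (NM_001163273), an adaptor of signalling pathways, read 8.34, 8.26, 8.45 and 8.28 after sham and 7.97, 7.72, 7.80, 8.05 and 8.05 after iTBS. In both genes the arms were apart and the repeat array read with the iTBS arm, at 6.68 and 8.04. Their differences were -0.50 and -0.41 (limma, adjusted p = 0.645 for each), -0.32 and -0.28 within scan batch 1 and -0.94 and -0.51 within batch 2. The difference in *Cmip* was -0.17 with quantile normalization.

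*Mob1a* (NM_001033891), a co-activator of Hippo pathway kinases, was between 4.95 and 5.20 after sham and between 4.48 and 4.82 after iTBS (difference -0.40, -0.24 and -0.60 within scan batches 1 and 2). *Cpxm2* (NM_001106306), a secreted protein of the carboxypeptidase family, read 2.67, 1.01, 1.78 and 1.80 after sham and 0.32, -0.28, -0.31, -0.01 and 1.43 after iTBS. In *Cpxm2* 4 of the 5 iTBS arrays lay below all sham arrays and iTBS 5 lay within their range, for a difference of -1.58 (limma, unadjusted p = 0.00047, adjusted p = 0.517) that was -0.82 within scan batch 1 and -2.76 within batch 2. The remaining genes among the 12 with the smallest p on the lower side were faint. The sham mean of *Hs3st3b1*, a heparan sulfate sulfotransferase gene, was 1.93-fold above the lowest signal well above background on the iTBS arrays (limma, adjusted p = 0.0814). The same measure was 1.94-fold for *FAM187A* and 2.24-fold for *Itprid1*. Each was well above background on no iTBS array, so among the AU cortex arrays only sham arrays helped them pass the background filter. *Hs3st3b1* was well above background on only 1 sham array, and the measure takes sham values as read, so it is no strict bound.

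On the higher side the 2 smallest p were those of *Syt6* and *Sp9*. *Syt6* (NM_022191), a member of the synaptotagmin family of membrane trafficking proteins, read -2.42, -1.46, -1.66 and -1.72 after sham and -0.49, -0.63, -0.56, -0.29 and -1.13 after iTBS. The arms were apart, with iTBS 5 nearest to the sham arm, but the repeat of iTBS 4 read -1.42, within the sham range. The difference was 1.20 (limma, unadjusted p = 6e-05, adjusted p = 0.171), 0.91 within scan batch 1 and 1.86 within batch 2.

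*Sp9* (NM_001191902), a zinc finger transcription factor of developing forebrain interneurons, read -1.82, -1.91, -2.24 and -2.32 after sham and -1.61, -0.83, -0.95, -0.50 and -1.41 after iTBS. The arms were narrowly apart, and the repeat of iTBS 4 again fell within the sham range, at -2.21. The difference was 1.01 (limma, unadjusted p = 7e-05, adjusted p = 0.171), 1.20 within scan batch 1 and 0.69 within batch 2. Both genes were well above background on 3 of 4 sham arrays and on all 5 iTBS arrays.

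The other 10 genes on the higher side had adjusted p between 0.455 and 0.645 by limma. *Chtf18*, a clamp loader subunit of sister chromatid cohesion, read -0.21, 1.19, 0.99 and 0.84 after sham and 1.41, 1.76, 1.67, 0.99 and 1.44 after iTBS. The sham 1 array was far below the other sham arrays, and iTBS 4 lay within the sham range (difference 0.75, 0.21 within scan batch 1 and 1.82 within batch 2). *Mvb12a*, a subunit of the ESCRT-I sorting complex, differed by 0.72 and *Crygd*, a lens crystallin gene, by 0.67. *Recql4*, a DNA helicase gene, was at least 1.89-fold higher, *Chek2*, a checkpoint kinase gene, at least 1.26-fold and *Sting1*, the adaptor of cytosolic DNA sensing, at least 1.37-fold. None of these 3 was well above background on any sham array. *Mixl1*, *Trim69*, LOC103694196 and *Lekr1* were likewise well above background on no sham array, with bounds of at least 1.22-fold, 1.18-fold, 1.39-fold and 1.53-fold. For all genes with such a bound, only iTBS arrays among the AU cortex arrays helped them pass the background filter. That they were higher after iTBS is therefore no independent support. The bounds in this paragraph take the iTBS mean as read over the lowest signal well above background on the sham arrays. They are approximate where an iTBS array was not well above background. All 24 genes with the smallest p kept their sign under every processing alternative in which they were tested. They were chosen by p on these same arrays, so a kept sign is no independent support.

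**Figure D3:**
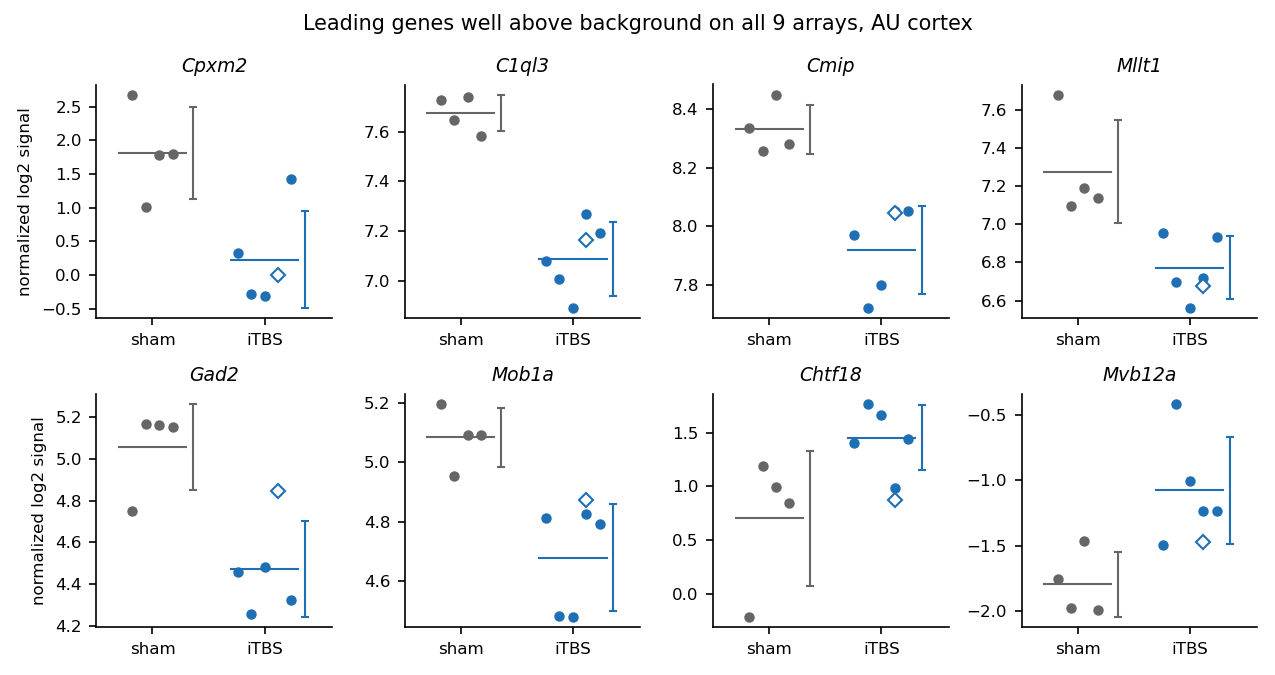
Normalized log2 signal (y axis, separate scale per gene) of the 8 genes, among the 24 with the smallest p, that were well above background on all 9 arrays (grey, sham, n = 4, blue, iTBS, n = 5, lines, means, error bars, SD, open diamonds, the repeat array of iTBS 4). *C1ql3*, *Cmip*, *Mllt1* and *Mob1a* show arms that do not overlap, and *Gad2*, *Cpxm2*, *Chtf18* and *Mvb12a* overlap by 1 or 2 arrays.

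The differences also followed signal level. When the tested probes were divided by mean signal into 10 groups of equal size, the median difference was 0.31 in the dimmest group and -0.24 in the brightest, where 2915 of 3261 probes were lower after iTBS. The share of probes well above background, the spread of log2 signals and the arm moved together across these arrays. With scaling to the 75th percentile the brightest group stood at -0.09, with quantile normalization at -0.05, and with the share well above background as a covariate at 0.05. Results for groups of bright genes are therefore given with a second scaling.

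**Figure D4:**
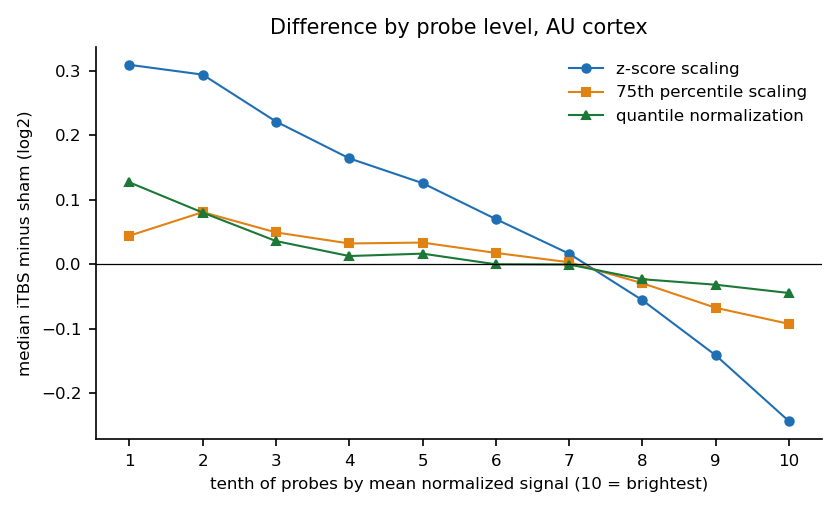
Median difference, iTBS minus sham (log2, y axis), of the tested probes in 10 groups of equal size by mean normalized signal (x axis, 10 is brightest), under 3 ways of scaling the arrays. With z-score scaling the median passed from 0.31 in the dimmest group to -0.24 in the brightest, and with quantile normalization from 0.13 to -0.05.

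Genes were then grouped by function. In none of 35 lists did a member pass the test. Over all 13336 genes the median difference was -0.01, 51.3% were lower after iTBS, 4.31% were lower at an unadjusted p under 0.05 and 3.04% were higher.

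Genes of protein synthesis and oxidative phosphorylation read lower after iTBS with z-score scaling. All 77 cytoplasmic ribosomal protein genes tested were lower, 24 of them at an unadjusted p under 0.05, with a median of -0.35 that was -0.07 with quantile normalization (59 of 77 lower, 1 at an unadjusted p under 0.05) and 0.14 with the share well above background as a covariate. Their mean signal per array was 9.49, 9.41, 9.72 and 9.77 after sham and 9.31, 9.02, 8.92, 9.77 and 9.32 after iTBS. The iTBS 4 array was level with the highest sham array, and its repeat read 9.75. Within scan batch 1 the median was -0.08 and within batch 2 it was -0.47. Without iTBS 4 the 24 genes at an unadjusted p under 0.05 became 62, and within scan batch 1 or with the slide as a block there were 0 by limma. Over all 13336 genes, 575 were lower at that p in the main fit. The number was 1922 without iTBS 4, 89 within batch 1 and 246 with the slide as a block. *Rps15*, the member with the smallest p, read 10.33, 10.06, 10.21 and 10.15 after sham and 9.90, 9.84, 9.76, 10.00 and 9.71 after iTBS. Its arms were apart, and it differed by -0.35 with z-score scaling, -0.05 with quantile normalization and 0.02 with normexp correction and quantile normalization. Ribosomal protein genes have many processed copies in the genome, and the probes may share signal with them.

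All 16 ATP synthase genes (median -0.28), 22 of 25 genes of complexes II to IV (median -0.31), 29 of 33 of complex I (median -0.21) and 47 of 66 mitochondrial ribosomal protein genes (median -0.18) were lower as well. Quantile normalization brought these medians to -0.04, -0.10, -0.05 and -0.05, with 11, 18, 19 and 41 genes lower. Within scan batch 1 the medians were -0.10, -0.03, -0.05 and -0.03 and within batch 2 they were -0.25, -0.35, -0.23 and -0.15. The numbers at an unadjusted p under 0.05 on the lower side, 5, 5, 1 and 14, became 12, 15, 15 and 24 without iTBS 4. Over all 13336 genes that number went from 575 to 1922. *Cox5b*, a cytochrome c oxidase subunit, differed by -0.38 and *Atp5po*, a stalk subunit of ATP synthase, also by -0.38, each with overlapping arms. Over the 30 processing alternatives they ran from -0.65 to 0.02 and from -0.64 to 0.06. *Mrps22*, a mitochondrial ribosomal protein, differed by 0.69 and read 0.62 on the sham 1 array against 2.12 to 2.91 on the other 8. It differed by 0.02 within scan batch 1 and 2.15 within batch 2. Of 31 proteasome genes 22 were lower (median -0.14), and 14 with quantile normalization (median 0.04). *Psmb4*, a core subunit, was between 7.82 and 8.03 after sham and between 7.50 and 7.80 after iTBS, which left the arms apart by a narrow margin. Of 25 heat shock and chaperone genes 17 were lower, 4 at an unadjusted p under 0.05, with a median of -0.17 that became -0.02 with quantile normalization (13 lower) and 0.02 with normexp correction. *Hsp90ab1*, a cytosolic chaperone, differed by -0.38, and by -0.62 to -0.12 over the 30 processing alternatives.

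**Figure D5:**
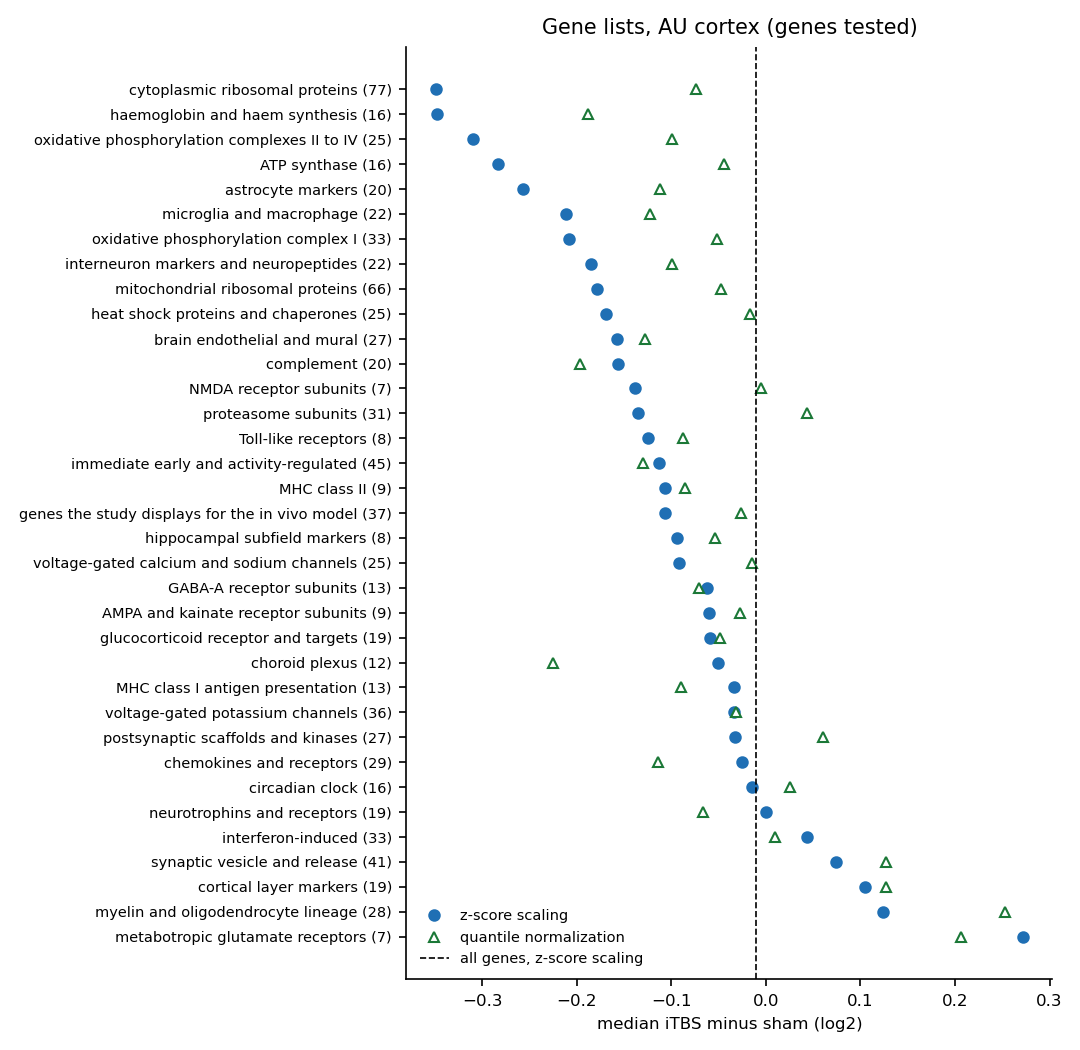
Median difference, iTBS minus sham (log2, x axis), of the tested members of each of the 35 gene lists (number tested in parentheses) with z-score scaling (filled circles) and quantile normalization (open triangles). The dashed line is the median over all genes, -0.01. The cytoplasmic ribosomal list and the haemoglobin and haem synthesis list lie farthest to the left with z-score scaling, at -0.35 each, and stand at -0.07 and -0.19 with quantile normalization.

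Immediate early and activity-regulated genes showed no common direction among their best known members. *Fos*, a subunit of the AP-1 transcription factor, read 0.77, 2.57, 1.12 and 3.27 after sham and 2.80, 0.30, 2.57, 1.79 and 2.22 after iTBS. Both arms ran from low to high over about the same range, and the difference was 0.00 with a standard error of 0.67. *Arc*, a regulator of AMPA receptor trafficking, read 6.50, 7.87, 6.61 and 8.53 after sham and 7.55, 5.55, 7.11, 6.41 and 7.58 after iTBS, for a difference of -0.54 ± 0.51 (SE). *Egr1* differed by 0.15, *Junb* by 0.08 and *Bdnf*, the growth factor gene, by 0.00. *Npas4*, an activity-dependent transcription factor, differed by 0.92 ± 0.68 (SE) but by -0.41 with the share well above background as a covariate. In each of these 6 genes the arms overlapped. *Fos*, *Arc*, *Egr1* and *Junb* had opposite signs in the scan batches, -0.32, -0.68, -0.29 and -0.46 within batch 1 and 1.12, 0.24, 0.65 and 0.78 within batch 2. Of 45 genes of the list 31 were lower and 14 higher, with a median of -0.11 (-0.13 with quantile normalization, -0.25 within scan batch 1 and 0.06 within batch 2).

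2 genes of that list had an unadjusted p under 0.05. *Vgf*, the gene of a secreted neuropeptide precursor, read 8.59, 8.61, 9.0 and 8.44 after sham and 8.25, 8.07, 8.26, 8.29 and 8.39 after iTBS. The arms were apart and the repeat of iTBS 4 read 8.28 (difference -0.41, limma unadjusted p = 0.019, adjusted p = 0.645, -0.16 with quantile normalization). *Jun*, the AP-1 partner of *Fos*, named after its value was seen, differed by -0.31 with overlapping arms.

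Among synaptic genes the subunits of each receptor class were split in direction. Of 7 NMDA receptor subunits 4 were lower, and the only 2 at an unadjusted p under 0.05 were *Grin3a* and, named after its value was seen, *Grin2a*. *Grin3a*, the GluN3A subunit, read 2.03, 2.0, 2.09 and 2.57 after sham and 0.98, 1.48, 1.74, 1.58 and 1.93 after iTBS, with the arms apart (difference -0.63, limma adjusted p = 0.645, -0.72 with quantile normalization, -0.46 and -0.63 within scan batches 1 and 2). *Grin2a* read 4.44 to 4.89 after sham, and iTBS 4, at 5.00, was above all of them while the other 4 iTBS arrays, at 3.80 to 4.26, were below. Of 9 AMPA and kainate subunits 5 were lower, of 7 metabotropic receptors 3 and of 13 GABA-A subunits 10, none at an unadjusted p under 0.05. *Gabrq*, a GABA-A theta subunit, read 6.66 and 6.68 on iTBS 2 and iTBS 3 and between 2.94 and 5.23 on the other 7 arrays. *Ptk2b*, a tyrosine kinase gene, and *Per3*, a clock gene, were also highest on these 2 arrays, and with the slide as a block *Gabrq* and *Per3* changed sign (-0.54 and -0.17). The repeat array of iTBS 4, which lay on the same slide as these 2, read 4.09 for *Gabrq* against 2.94 on its first array, 5.57 against 5.37 for *Ptk2b* and 1.91 against 1.70 for *Per3*.

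Of 27 postsynaptic scaffold and kinase genes 14 were lower, with none at an unadjusted p under 0.05 and a median of -0.03 that was 0.06 with quantile normalization. Synaptic vesicle genes were divided as well, 22 higher and 19 lower with none at an unadjusted p under 0.05 and a median of 0.07. Of 36 voltage-gated potassium channel genes 21 were lower, 1 at an unadjusted p under 0.05 (*Kcnh3*, -0.41, and -0.60 to 0.07 over the 30 processing alternatives). Of 25 calcium and sodium channel genes 14 were lower. *Scn3b*, a sodium channel beta subunit, read 8.15, 7.71, 7.65 and 7.78 after sham and 7.59, 7.26, 7.37, 7.39 and 7.32 after iTBS. The arms were apart, with sham 1 the highest, and the repeat of iTBS 4 read 7.33 (difference -0.44, limma unadjusted p = 0.0039, adjusted p = 0.645, -0.24 with quantile normalization, -0.36 and -0.75 within scan batches 1 and 2). *Cacna1g*, a T-type calcium channel gene, differed by 0.63 with overlapping arms, -0.01 within scan batch 1 and 1.71 within batch 2.

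For cell types, *Gad2* was the single one of 22 interneuron markers and neuropeptide genes with an unadjusted p under 0.05. Of the 22, 16 were lower, for a median of -0.18 that was -0.10 with quantile normalization, -0.01 within scan batch 1 and -0.27 within batch 2. Other markers of GABA neurons had an unadjusted p above 0.05. *Pvalb*, of fast-spiking interneurons, differed by -0.01, *Sst*, the somatostatin gene, by -0.36, *Slc32a1*, the vesicular GABA transporter gene, by 0.50, and *Penk*, the enkephalin precursor gene, by 0.42, with overlapping arms as in *Gad2*. Over the 30 processing alternatives *Pvalb* ran from -0.14 to 0.21, *Sst* from -0.62 to 0.02, *Slc32a1* from -0.16 to 0.77 and *Penk* from 0.21 to 0.57.

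Of 20 astrocyte markers 17 were lower, 3 of them at an unadjusted p under 0.05 (*Aqp4*, *Gja1* and *Agt*, of which the last 2 were named after their values were seen), with a median of -0.26 that was -0.11 with quantile normalization and 0.01 with the share well above background as a covariate. Within scan batch 1 the median was -0.08 and within batch 2 it was -0.41, and without iTBS 4 there were 8 markers lower at an unadjusted p under 0.05, as were 1922 of all 13336 genes. *Aqp4*, the water channel of astrocyte endfeet, read 8.66, 8.24, 8.58 and 8.72 after sham and 7.81, 7.84, 7.66, 8.76 and 8.22 after iTBS. The iTBS 4 array was the highest of all 9, and the other 4 iTBS arrays were below every sham array (difference -0.49, -0.02 within scan batch 1 and -0.89 within batch 2). *Gfap* differed by 0.06. Of 28 myelin and oligodendrocyte genes 19 were higher, for a median of 0.12 that was 0.25 with quantile normalization (24 of 28 higher) and 0.07 and 0.27 within scan batches 1 and 2. *Erbb3*, a neuregulin receptor gene, differed by 0.68, and *Mbp*, myelin basic protein, by -0.22 with z-score scaling and 0.14 with quantile normalization.

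Of 22 microglia and macrophage genes 15 were lower, 4 at an unadjusted p under 0.05, with a median of -0.21 (-0.12 with quantile normalization, -0.08 within scan batch 1 and -0.52 within batch 2). *Lyz2*, the lysozyme gene, read 6.94, 6.67, 7.14 and 7.81 after sham and 6.17, 5.73, 5.89, 6.92 and 6.83 after iTBS, so that 3 iTBS arrays lay below the sham range and 2 within it (difference -0.83, limma adjusted p = 0.645, -0.02 with the share well above background as a covariate). *Cx3cr1*, the fractalkine receptor of microglia, went the other way, by 0.64, and *Cx3cl1*, its neuronal ligand, differed by -0.42. *C1qb*, a complement subunit, differed by -0.52, and by -0.70 to -0.01 over the 30 processing alternatives.

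Genes of antigen presentation set the iTBS 4 animal apart. *Cd74*, the invariant chain of MHC class II, read 3.56, 3.09, 2.69 and 4.10 after sham and 3.15, 4.37, 3.73, 0.47 and 4.03 after iTBS, and *RT1-Da*, a class II alpha chain, read 1.28, 0.94, 0.71 and 2.38 after sham and 1.25, 1.87, 1.33, -1.72 and 1.84 after iTBS. Only iTBS 4 was low, and its repeat array gave the same low values, 0.44 and -1.71. Both genes differed little between the arms (-0.21 and -0.41), and without iTBS 4 the signs turned (0.46 and 0.24). *Tlr3*, a sensor of double-stranded RNA, was between 2.39 and 2.43 on the sham arrays and read 1.86, 1.07, 1.31, 2.29 and 2.23 after iTBS. The arms were apart by a small step, since iTBS 4 and iTBS 5 lay just under the sham arm (difference -0.66, limma adjusted p = 0.645, -0.23 with the slide as a block, -0.16 and -0.98 within scan batches 1 and 2). Of 33 interferon-induced genes 19 were higher and none had an unadjusted p under 0.05.

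The remaining lists had between 0 and 4 members at an unadjusted p under 0.05. Of 19 cortical layer markers 11 were higher (median 0.10), and *Scnn1a*, a sodium channel subunit gene of layer 4, differed by 0.81. Of 8 hippocampal subfield markers 6 were lower, of 12 choroid plexus genes 6, of 9 MHC class II genes 5, of 13 genes of MHC class I presentation 8 and of 8 Toll-like receptors 5. Of 27 endothelial and mural genes 16 were lower, of 20 complement genes 14, of 29 chemokines and receptors 16, of 16 haemoglobin and haem synthesis genes 13 (median -0.35, and -0.19 with quantile normalization), of 19 glucocorticoid targets 12, of 19 neurotrophins and receptors 10 and of 16 clock genes 9. The iTBS 4 array stood apart in the endothelial and mural genes, with a mean signal of 2.32 (2.30 on its repeat) against 2.99 to 3.24 on the other 8 arrays. Without it 13 of the 27 were lower and the median turned from -0.16 to 0.09, and 11 of the 20 complement genes were lower. *Ntrk2*, the BDNF receptor gene, was between 8.01 and 8.34 after sham and between 7.67 and 8.10 after iTBS (difference -0.35, and -0.12 with quantile normalization), and *Mt1*, a metallothionein gene, differed by -0.66. Of 37 genes that the study displays for its stimulated animals, a list that the study may have chosen on these samples and that is therefore no independent evidence, 20 were lower and 17 higher, 1 at an unadjusted p under 0.05.

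The AU cortex difference was set against the same contrast in other animals and tissue, each with its own sham arm, by testing the difference of the differences in limma. Against AI cortex (3 iTBS and 4 sham arrays) 6 probes differed at an adjusted p under 0.05 (0.0184%) and 8.17% had an unadjusted p under 0.05. Against young cortex (4 and 4) no probe of 32603 differed by limma, and 1996 had an unadjusted p under 0.05 (6.12%). For the hippocampus of AU animals, cortex minus hippocampus was taken within each animal, matched by group and replicate number. No probe of 34756 then differed by limma, and 1843 had an unadjusted p under 0.05 (5.3%). The 6 probes were faint, and 5 of them were low after iTBS in AU and high after iTBS in AI. *C2cd6* was well above background on 2 of 4 sham and no iTBS arrays in AU and on no sham and 2 of 3 iTBS arrays in AI, and *Hs3st3b1* on 1 and none in AU and on none and 2 in AI (limma, adjusted p = 0.0139 for each). In all 6 at least 1 arm was well above background on no array, so the size of the difference was not measured. The AI values rest in part on the AI iTBS 2 array, whose technical repeat was closer to the AI sham 2 array (median absolute difference 0.127) than to its own first array (0.237), and without that animal 1 probe differed by limma.

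The leading genes were also read in the other groups. *Gad2* differed by -0.07 in AI cortex, -0.06 in young cortex and -0.06 in AU hippocampus, against -0.59 in AU cortex, but the tests of these differences gave adjusted p of 0.611, 0.777 and 0.733 by limma. *C1ql3* differed by 0.37 in AI cortex, 0.14 in young cortex and -0.06 in AU hippocampus, with adjusted p of 0.29, 0.777 and 0.733 for the difference from AU cortex. *Syt6* differed by -0.27, -0.01 and -0.20, with adjusted p of 0.405, 0.777 and 0.733. Within each of the other groups no probe changed at an adjusted p under 0.05 by limma, and 1269 probes in AI cortex, 947 in young cortex and 844 in AU hippocampus had an unadjusted p under 0.05 (3.89%, 2.9% and 2.43%, against 7.29% in AU cortex). These counts depend on how many arrays each group held and on how far its arrays spread, and the difference between them was not tested.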

How the data were processed

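RNA was hybridized by the authors to Agilent 1-colour rat arrays (62976 features), and each deposited file held 1 array's scanner output with processed intensity, made by Feature Extraction 12.0.3.1 per the file headers. The authors also deposited a table of z-scores (unit: score) taken from log2 signals over all features, controls included. Here log2 processed intensity was averaged over spots of a probe without outlier flags, converted to z-scores over non-control probes and multiplied by the mean array SD of 4.09, so values are on a log2 scale. Probe accessions were matched to RefSeq symbols, which named 46.3% of probes. limma 3.58.1 (R 4.3.3) was fitted to 24 first cortex arrays, 1 per animal, with 18 residual degrees of freedom. The number of arrays limits precision, and p-values measure the spread between these animals. Genes named were the 12 with the smallest p in each direction, the leading member of each list in each direction and a set of chosen genes, of which *Hba1* was not found. The members, lists and tests were chosen with earlier results of these data known. Scripts were tested on simulated data. Alternatives covered scaling, background correction (normexp with an offset of 50 on median signals), filters, slide and scan batch, repeats, and each animal left out. No sequences were printed, because the files used here hold none for the probes. Some genes are not reported here.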

Additional observations from a re-analysis of the deposited data

Results flagged for a closer look

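In 13 of 220 groups of values tested, 1 array lay far from the others of its arm by Dixon's ratio of gap to range, and chance alone gives about 1 in 20. In the sham arm the sham 1 array was low for *Gad2* (4.75, ratio 0.972), *Recql4* (-4.53, 0.926), *Ppox* (0.39, 0.897) and *Chek2* (-4.49, 0.858) and high for *Cfi* (-2.98, 0.879) and *Mllt1* (7.68, 0.844). The sham 3 array was high for *Grin2d* (8.00, 0.862) and *Iapp* (-0.14, 0.838), and sham 4 for *Grin3a* (2.57, 0.854). In the iTBS arm the iTBS 4 array was low for *C1s* (1.24, 0.830) and *RT1-Da* (-1.72, 0.827), and its repeat array read 1.28 and -1.71. The iTBS 1 array was high for *Ttr* (9.44, 0.724), and iTBS 5 was low for *Trim69* (-2.82, 0.751).

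The difference between iTBS and sham differed between AU and AI cortex at 6 probes by limma, by -5.64 for *C2cd6*, -4.28 for *Hs3st3b1*, 2.27 for ENSRNOT00000055082, -4.02 for AI045374, -5.22 for ENSRNOT00000071533 and -3.83 for XM_001077064. These are fitted values and no measured sizes, since in each at least 1 arm was well above background on no array. All 6 were well above background on 4 or fewer of the AU cortex arrays.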

How the results depend on the processing

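The 5 changed probes were kept with scaling to the 75th percentile (5 called, 1192 at an unadjusted p under 0.05), and 4 of them with the deposited z-scores. None was called with quantile normalization (0 called, 1193 unadjusted), normexp (0, 1449), a filter on the 9 arrays (0), a mean z-score above 0 (0, 1295), the slide as a block (0, 1513) or a random block (0), the scan batch as a block (0), repeats averaged (0) or the share well above background as a covariate (0, 1068). With a floor under each array's signals 1 probe was called, none of the 5 (5130 unadjusted, 62.0% of them higher), with no filter 26 (5347, 30.1% higher), and with the 9 arrays alone 3. Of those chosen after seeing the data, scan batch 1 alone gave 0 (976), batch 2 alone 0, the scan block on 9 arrays 2 (1556), the repeat of iTBS 4 in place of its first array 2, and probes well above background on all 9 arrays 0 (1580). The filter on the 9 arrays left only *Cd69* of the 5 in the test. The fits over probes with a mean z-score above 0 or well above background on all 9 arrays tested none of the 5. These fits could not call the probes they left out. The study's own selection rule took 24 probes. Without AI iTBS 2, 7 were called. Leaving out 1 animal gave 0 to 3 called probes and 1106 (without iTBS 3) to 6833 (without iTBS 4) at an unadjusted p under 0.05. Without iTBS 4 none was called.

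Replicate numbers belong to different animals, and same-numbered arrays correlated at 0.157, -0.0372, -0.0944 and 0.317, so they were not taken as pairs. With the replicate block 1 probe was called (4144 unadjusted), which was none of the 5. At an adjusted p under 0.3 the 15 probes became 9782 without iTBS 4, 3516 with the floor, 1620 with no filter and 547 in scan batch 2 alone.

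The difference from AI cortex went from 6 probes to 0 with normexp, 51 with no filter, 3 with a filter on the 9 arrays, 0 with a mean z-score above 0, 1 without AI iTBS 2, 1 with repeats averaged, 0 with the covariate, 2 with the replicate block, 0 over probes well above background on all 9 arrays, and 2 to 7 with 1 AU animal left out. The difference from young cortex went from 0 to 1 with no filter and to 1 without AI iTBS 2, and the difference from AU hippocampus stayed between 0 and 1 with 1 animal left out. Fits to the 9 arrays or to 1 scan batch hold no AI or young arrays and could not give these differences. The fit over probes well above background on all 9 arrays did not test the 6 probes that differed from AI cortex. Of the 109 named genes and probes 8 changed sign under at least 1 of 4 scalings and 47 under at least 1 of 30 alternatives. Leaving out an animal moved the difference in the share of probes well above background between 3.55 and 5.25 percentage points. The exact permutation p ran from 0.0286, the smallest that 70 divisions allow, to 0.0893.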

Other observations

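The selection rule of the study combined a one-way analysis of variance, a z-test, a false discovery rate and a minimum z-ratio. Here its analysis of variance was run on the 24 first cortex arrays in 6 groups, and its z-test on the 9 AU arrays. The false discovery rate was taken over the probes that passed the analysis of variance. The rule took 24 probes, 12 higher and 12 lower, and the genes below were named after these values were seen. *Ogn*, which encodes the matrix proteoglycan osteoglycin, read 3.25, 4.06, 3.29 and 4.60 after sham and 0.96, 3.35, 0.48, 0.30 and 3.94 after iTBS. The arms overlapped, since iTBS 2 and iTBS 5 lay with the sham arrays, and the repeat of iTBS 4 read 0.40. *Slco2a1*, a prostaglandin transporter gene, differed by -1.44, *Thbs2*, a thrombospondin gene, by -1.18, and *Itgb4*, an integrin of basement membranes, by -1.16, each with overlapping arms and with an adjusted p of 0.645 by limma. Within scan batches 1 and 2 *Ogn* differed by -1.86 and -1.65, *Slco2a1* by -1.06 and -0.91, *Thbs2* by -1.09 and -0.94 and *Itgb4* by -0.49 and -1.50. *Ogn* and *Slco2a1* were also lower after iTBS in AI cortex, by -1.82 and -0.90, and in young cortex, by -1.07 and -0.97, and differed by 0.27 and 0.26 in AU hippocampus. *Thbs2* differed by 0.006 in AI cortex and -1.12 in young cortex, and *Itgb4* by -0.57 and -0.58. The AI and young cortex arrays entered the analysis of variance, so these values are not independent of the selection. Among the higher ones *Atp2b3*, a calcium pump gene, differed by 0.91, *Fgf1*, a growth factor gene, by 0.89 and *Unc5b*, a netrin receptor gene, by 0.66, with overlapping arms and an adjusted p of 0.645 by limma. Within scan batches 1 and 2 *Atp2b3* differed by 0.08 and 2.02, *Fgf1* by 0.56 and 0.87 and *Unc5b* by 0.61 and 0.54. With the share well above background as a covariate the 3 differences were 0.36, 0.30 and 0.54. The repeat of iTBS 4 lay below the sham mean in all 3, at -0.26, -0.09 and -0.71 relative to it.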
